A study of Rattus norvegicus with 48 samples.

Results

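Liver miRNAs of 3 ethanol-fed (EtOH) and 3 carbohydrate-fed (CHO) rats were compared at 72 h after partial hepatectomy (PHx), for all 143 miRNAs of the deposited table. These 6 animals, of 48 in the series, were picked by their labels for diet, time and treatment. The comparison itself and the named miRNAs were chosen with earlier results of these data known. No miRNA passed adjustment, so the differences below are given as sizes with their errors. The largest were in miR-144 and miR-451, which red blood cells hold in abundance, at 2.17-fold and 2.09-fold higher in EtOH-fed animals, and 1 of the 3 EtOH-fed animals did not share them. miR-26a, miR-145, miR-181a, and miR-29a were 24.0% to 35.6% lower in EtOH-fed animals, and miR-34a, miR-203, miR-152, and miR-130a were 1.43-fold to 1.61-fold higher. In each, all 3 animals of one diet lay beyond all 3 of the other, as in 26 of all 143 miRNAs (18.2%). They were taken from the 14 with an unadjusted limma p under 0.05. Of these, miR-181a, miR-152, and miR-130a were also related to the total count of the animal. 8 miRNAs called for their mean diet difference over 0, 6, and 24 h, among them miR-365 and miR-103, had smaller differences at 72 h. They were chosen for their size at those times, and the change passed no adjusted test.

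The animals were male Sprague-Dawley rats kept for weeks on a Lieber-DeCarli liquid diet, in which part of the calories came from ethanol or, in pair-fed controls, from maltose-dextran in its place. All 6 had 70% PHx, none was injected with anti-miR-21 (AM21) or saline, and total RNA came from frozen whole liver. Both diets at 72 h carry labels of numbered set 4, so the set does not differ between them. The comparison asks whether chronic ethanol feeding changes miRNA levels late in regeneration. Other untreated animals, 3 per diet at each of 0, 6, and 24 h, served to estimate the spread between animals and for looking up the same miRNAs at other times. In whole liver, fewer cells of a type and less RNA per cell cannot be told apart.

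A miRNA is cut from a hairpin precursor and guides the Argonaute protein to messenger RNAs, which are then repressed. Pairing relies mostly on the seed, bases 2 to 8 of the mature miRNA, so miRNAs with one seed can act on overlapping targets. After PHx the remaining hepatocytes divide until liver mass is restored, and prolonged ethanol intake is known to slow this. Among the miRNAs below, miR-26a and miR-34a are known to restrain the cell cycle, miR-34a as a target of p53, and miR-29 represses collagen genes.

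The total count per animal was 200312, 171919, and 209221 in CHO-fed and 255825, 267582, and 163533 in EtOH-fed animals, against 58168 to 267582 over the 24 untreated animals. Hepatocyte miR-122 took 55.6% to 63.3% of the counts at 72 h, and the lowest count of any miRNA in an animal was 21 to 31. Values are log2 CPM, library-scaled counts on a log2 scale, as the authors deposited them. A difference is EtOH minus CHO on that scale, with its standard error (SE) from limma. Across the 143 miRNAs the median absolute difference between 2 animals was 0.157 to 0.246 for the 6 pairs within a diet and 0.185 to 0.315 for the 9 pairs between diets, so these ranges overlapped.

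The mature sequences of the leading miRNAs follow, as RefSeq (GRCr8) lists them, 5′ to 3′ with the seed in capitals. Measured miRNAs with the same seed are printed next to each, so that their differences can be set side by side. Sequences were matched for 97 of the 143 miRNAs and for 9 of the 14 with an unadjusted p under 0.05. Of these 9, miR-145 was matched but is not printed.
miR-451: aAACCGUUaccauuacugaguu
miR-144: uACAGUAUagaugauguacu
miR-26a: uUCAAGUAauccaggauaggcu
miR-26b: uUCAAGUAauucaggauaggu
miR-29a: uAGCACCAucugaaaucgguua
miR-29c: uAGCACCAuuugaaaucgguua
miR-29b: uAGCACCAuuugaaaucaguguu
miR-181a: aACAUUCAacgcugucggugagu
miR-181c: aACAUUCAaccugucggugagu
miR-34a: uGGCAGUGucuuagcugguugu
miR-34c: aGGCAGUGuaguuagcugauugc
miR-152: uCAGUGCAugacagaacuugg
miR-148b-3p: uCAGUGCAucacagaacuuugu
miR-130a: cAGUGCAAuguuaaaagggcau

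miR-144 and miR-451 come from adjacent hairpins on the plus strand, at chr10:63459397-63459479 and chr10:63459569-63459640, 89 bases apart, and have unlike seeds. The mature miR-26a lies at chr8:127633063-127633084 on the plus strand, within the span of the protein-coding gene Ctdspl. miR-152 lies at chr10:82329435-82329455 on the plus strand, within the span of Copz2, and miR-34a at chr5:165815971-165815992 on the plus strand, within a long noncoding RNA gene. miR-29a lies at chr4:60617968-60617989 and miR-130a at chr3:90229240-90229261, both on the minus strand and within no other kind of gene than miRNA genes. The annotation used gives whole gene spans, without exons. Counted from the 5′ end, miR-26a differs from miR-26b by C11U and C21U over the 21 bases they share, miR-29a from miR-29c by C10U, and miR-152 from miR-148b-3p by G10C and G20U over 21 bases.

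limma called 0 of 143 miRNAs between the diets at 72 h (0% of those tested), with a smallest adjusted p of 0.251. At an unadjusted p under 0.05 there were 14, or 9.79% of those tested, of which 9 were higher and 5 lower in EtOH-fed animals. Over all 143, 78 were higher and 65 lower, which turned to 67 higher and 76 lower with totals without miR-122. The median difference was 0.04, with a median absolute difference of 0.18 against a median SE of 0.23. For 126 miRNAs the 95% interval of the difference lay wholly within a 2-fold change in either direction, that is between -1 and 1 on the log2 scale. The median half-width of the 143 intervals was 0.47.

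**Figure D1:**
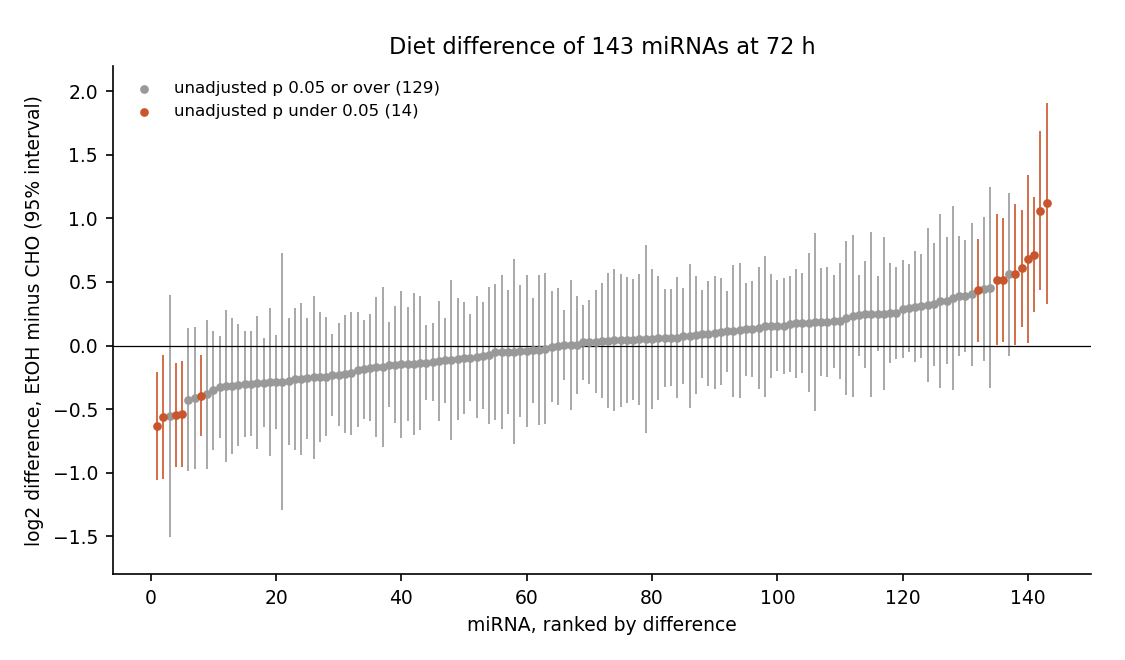
The log2 difference EtOH minus CHO of each of 143 miRNAs at 72 h (y axis), ranked from the lowest to the highest (x axis), with the 95% interval from limma as a vertical line. The 14 miRNAs in orange have an unadjusted p under 0.05. Differences ran from -0.63 to 1.12 with no break between most of the 14 and the rest, and the 2 highest, miR-144 and miR-451, stood above the others.

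The 3 EtOH-fed and 3 CHO-fed animals did not overlap in 26 miRNAs, 18.2% of those tested, with EtOH above CHO in 18 and below in 8. This split depended on the scaling, with 17 above and 10 below under RLE size factors, 13 and 10 when scaled to the 100 highest miRNAs, and 14 and 15 when scaled to totals without miR-122. Of these 26, 11 were among the 14 with an unadjusted p under 0.05 and 15 were not, such as miR-340-5p, miR-16, miR-25, and miR-23a. An exact permutation test of 3 against 3 animals cannot go below 0.10, which is its two-sided p for each of the 26.

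The red blood cell miRNAs had the 2 largest differences. Both are made in developing red blood cells, and miR-451 matures by Argonaute cleavage without Dicer. The log2 CPM of miR-451 was 8.11, 7.59, and 7.61 in CHO-fed animals 4_7, 4_8, and 4_9 and 8.03, 9.30, and 9.15 in EtOH-fed animals 4_10, 4_11, and 4_12. EtOH-fed animal 4_10 lay below the highest CHO-fed animal, so the groups overlapped. The difference was 1.06 (SE 0.30), with a limma adjusted p of 0.251. miR-144 was at 8.59, 8.49, and 8.78 in CHO-fed and at 8.80, 10.31, and 10.11 in EtOH-fed animals, a difference of 1.12 (SE 0.38, limma adjusted p 0.273). Here the groups did not overlap, but EtOH-fed animal 4_10 was 0.02 above the highest CHO-fed animal while the other EtOH-fed animals were over 1 above it. Counts were modest, 33 to 52 for miR-451 in CHO-fed and 56 to 141 in EtOH-fed animals. Without EtOH-fed animal 4_10, limma called both, miR-451 at 1.46 (adjusted p 0.00652) and miR-144 at 1.59 (adjusted p 0.0246). These were the only miRNAs called at 72 h under any alternative run. Animal 4_10 was the lowest EtOH-fed animal in both, so its omission had to enlarge the differences. The calls without it are therefore no support for them.

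Summed over the measured red blood cell miRNAs, miR-451 and miR-144, the level was 550 to 661 CPM in CHO-fed and 707 to 1898 CPM in EtOH-fed animals. miR-486, the third of the list, was not analysed here. The blood left in each liver was not measured, and its part in these differences was not tested. miR-16, which red blood cells also contain, was at 15.21, 15.18, and 15.36 in CHO-fed and 15.74, 15.67, and 15.51 in EtOH-fed animals. The groups did not overlap, and the difference was 0.39 (SE 0.23, limma adjusted p 0.640). Within the untreated groups miR-16 was higher in animals of larger total count, by 1.64 on the log2 scale per 10-fold (limma adjusted p 0.00257). Its difference was 0.28 once log10 total count entered the fit. At 6 h miR-16 differed by 0.21, while miR-451 and miR-144 differed by -0.45 and -0.62.

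**Figure D2:**
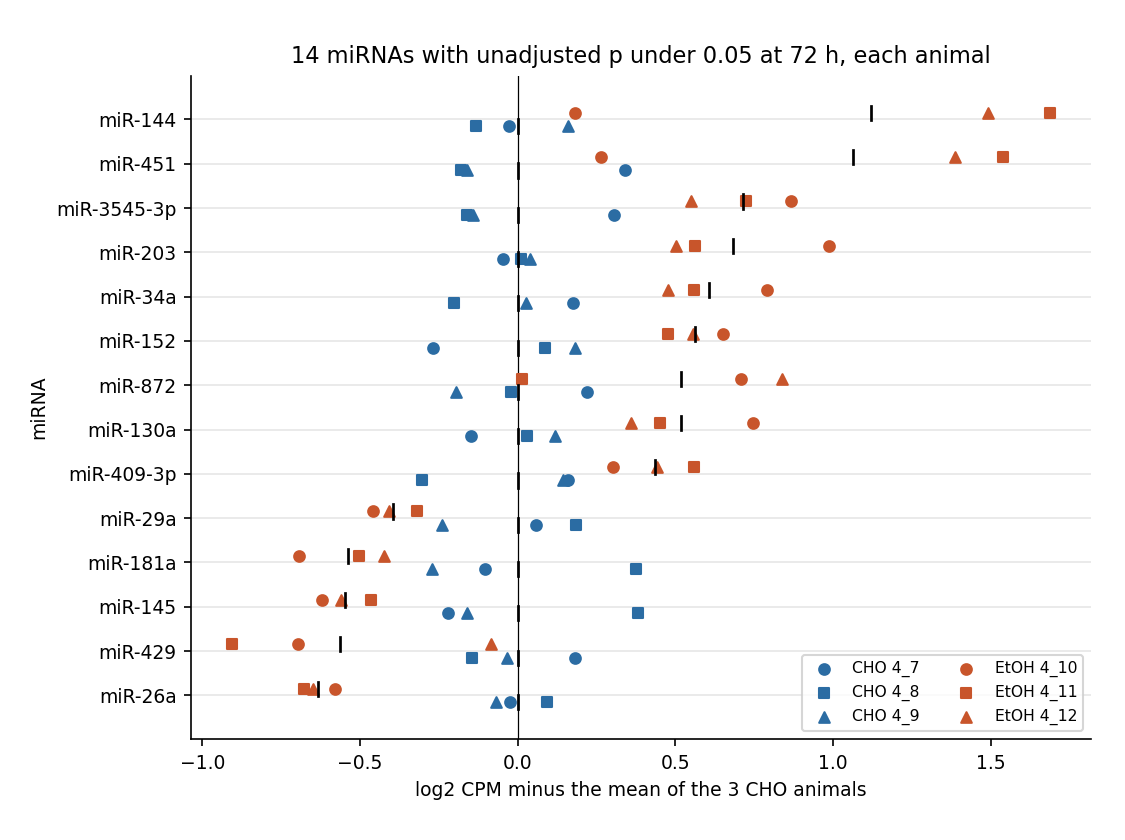
The 14 miRNAs with an unadjusted p under 0.05 at 72 h (y axis), each animal as a point at its log2 CPM minus the mean of the 3 CHO-fed animals (x axis), with black ticks at the group means. CHO-fed animals are blue and EtOH-fed animals orange, and the marker shape names the animal. EtOH-fed animal 4_10 sits near the CHO-fed animals in miR-144 and miR-451, whereas miR-26a, miR-203, and miR-34a show 3 EtOH-fed animals apart from all 3 CHO-fed animals.

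miR-26a, which restrains the cell cycle, was the lowest of all 143 in EtOH relative to CHO, with an SD of 0.08 among CHO-fed and 0.05 among EtOH-fed animals. Its log2 CPM was 9.62, 9.74, and 9.58 in CHO-fed and 9.07, 8.97, and 9.001 in EtOH-fed animals. All 3 EtOH-fed animals lay at least 0.5 below every CHO-fed animal. The difference was -0.63 (SE 0.21, limma adjusted p 0.258), with 147 to 150 counts per CHO-fed and 82 to 116 per EtOH-fed animal. Its seed partner miR-26b was at 9.89, 9.87, and 9.90 in CHO-fed and 9.90, 9.35, and 9.57 in EtOH-fed animals, which overlap, and differed by -0.28 (SE 0.24).

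miR-145, a miRNA of smooth muscle and stellate cells, was at 13.21, 13.82, and 13.28 in CHO-fed and 12.81, 12.97, and 12.88 in EtOH-fed animals. It differed by -0.55 (SE 0.20, limma adjusted p 0.274), without overlap, and CHO-fed animal 4_8 was the highest. The same animal was the highest in miR-181a, at 11.90 against 11.42 and 11.25 in the other CHO-fed animals, while EtOH-fed animals had 10.83, 11.02, and 11.10. miR-181a, best known from lymphocyte development, differed by -0.54 (SE 0.20, limma adjusted p 0.274), and without CHO-fed animal 4_8 the size was -0.35. In miR-145 it was -0.36 without that animal.

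miR-29a, which represses collagen genes, was at 14.71, 14.84, and 14.42 in CHO-fed and 14.20, 14.34, and 14.25 in EtOH-fed animals, a difference of -0.40 (SE 0.15, limma adjusted p 0.316). The groups lay close, with the highest EtOH-fed animal 0.08 below the lowest CHO-fed animal. With the same seed, miR-29c differed by -0.11 (SE 0.30) and miR-29b by 0.11 (SE 0.25). miR-429, an epithelial miRNA of the miR-200 family, was at 9.14, 8.81, and 8.92 in CHO-fed and 8.26, 8.05, and 8.87 in EtOH-fed animals. EtOH-fed animal 4_12 lay within the CHO-fed range, and the difference was -0.56 (SE 0.24, limma adjusted p 0.424).

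Among miRNAs higher in EtOH-fed animals, miR-34a, induced by p53 and a brake on cell division, was at 8.67, 8.29, and 8.52 in CHO-fed and 9.28, 9.05, and 8.97 in EtOH-fed animals. Every EtOH-fed animal lay above every CHO-fed animal, and the difference was 0.61 (SE 0.22, limma adjusted p 0.274). miR-34c, with the same seed, was at 7.99, 7.67, and 7.53 in CHO-fed and 7.81, 7.70, and 7.83 in EtOH-fed animals. It differed by 0.05 (SE 0.25). Within the untreated groups miR-34c was lower in animals of larger total count, at -1.92 per 10-fold (limma adjusted p 0.00144). Its difference was 0.17 once log10 total count entered the fit.

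miR-203, known from skin for ending proliferation, was at 9.54, 9.59, and 9.62 in CHO-fed and 10.57, 10.14, and 10.08 in EtOH-fed animals. The CHO-fed animals were within 0.1 of each other and all EtOH-fed animals lay above them by over 0.4. The difference was 0.68 (SE 0.32, limma adjusted p 0.492), where the SE rests on the wider spread of miR-203 at other times. miR-3545-3p, with 25 to 64 counts per animal, was at 7.66, 7.19, and 7.21 in CHO-fed and 8.22, 8.08, and 7.90 in EtOH-fed animals. It did not overlap and differed by 0.71 (SE 0.22, limma adjusted p 0.251), but with at least 50 counts asked of 3 animals it was left out.

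miR-130a and miR-152 were higher in deeper libraries as well as in EtOH-fed animals. miR-130a, known from blood vessels and stem cells, was at 10.39, 10.57, and 10.66 in CHO-fed and 11.28, 10.99, and 10.90 in EtOH-fed animals, a difference of 0.52 (SE 0.25, limma adjusted p 0.492). miR-152, which represses the DNA methyltransferase Dnmt1, was at 11.05, 11.40, and 11.50 in CHO-fed and 11.97, 11.79, and 11.87 in EtOH-fed animals, a difference of 0.56 (SE 0.27, limma adjusted p 0.492). Neither overlapped between diets. Within the untreated groups both were higher in animals of larger total count, by 1.85 and 2.04 on the log2 scale per 10-fold of depth. In all, 42 of 143 miRNAs were related to depth in one direction or the other at an adjusted p under 0.05. EtOH-fed animals 4_10 and 4_11 had larger totals than any CHO-fed animal and 4_12 a smaller one. Once log10 total count entered the fit, the differences were 0.40 and 0.43, with unadjusted limma p of 0.0351 and 0.0344. Of the other 12, miR-181a was also related to depth, at -1.18 per 10-fold (adjusted p 0.0206), and differed by -0.46 in that fit (unadjusted limma p 0.0108). miR-203, at 1.48 per 10-fold (adjusted p 0.0931), differed by 0.59 there, with an unadjusted limma p of 0.0567. miR-148b-3p, the seed partner of miR-152, differed by 0.09 (SE 0.17).

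The other 2 of the 14 were also higher in EtOH-fed animals. miR-409-3p was at 8.61, 8.15, and 8.60 in CHO-fed and 8.75, 9.01, and 8.89 in EtOH-fed animals, 0.43 apart (SE 0.20, limma adjusted p 0.492) without overlap, and 0.28 apart without CHO-fed animal 4_8, the lowest. miR-872 was at 8.24, 7.995, and 7.82 in CHO-fed and 8.72, 8.03, and 8.85 in EtOH-fed animals, 0.52 apart (SE 0.24, limma adjusted p 0.492), with EtOH-fed animal 4_11 inside the CHO-fed range. Beyond these, the 8 largest differences brought in no other miRNA.

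Over the seeds, 19 were shared by 2 or more of the matched miRNAs, 50 miRNAs in all. In none did more than 1 member have an unadjusted p under 0.05, against 9.79% of all 143 miRNAs. Nothing particular to seeds is read from this. Both members were lower in the miR-26 pair and both were higher in the pairs of miR-34a with miR-34c and of miR-152 with miR-148b-3p. miR-181a and miR-181c, with one seed, differed in sign, at -0.54 and 0.37 (SE 0.20 and 0.35). miR-181c had 42 to 78 counts per animal and was related to depth, at -2.26 per 10-fold (limma adjusted p 0.00941). Its difference was 0.52 once log10 total count entered the fit.

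Hepatocyte miRNAs had differences of 0.04 to 0.17, with 95% intervals between -0.45 and 0.54. miR-122, the main hepatocyte miRNA, was at 19.25, 19.06, and 19.34 in CHO-fed and 19.46, 19.53, and 19.15 in EtOH-fed animals, which overlap, and differed by 0.17 (SE 0.18). miR-192 and miR-194 differed by 0.04 and 0.06. Both were related to depth, at 1.89 and 1.80 per 10-fold, and differed by -0.08 and -0.05 once log10 total count entered the fit. miR-148a was not analysed here. The list's summed level was 576070 to 689010 CPM in CHO-fed and 611590 to 785170 CPM in EtOH-fed animals.

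Mesenchymal and stellate miRNAs had a median difference of -0.21 over 4 measured, against 0.04 over all 143. Of the 4, 3 were lower and 1 higher, against 65 lower and 78 higher of all 143. An unadjusted p under 0.05 was reached by 1 of the 4, against 9.79% of all 143. miR-145 and miR-143, products of one cluster, differed by -0.55 and -0.31, and miR-199a-5p and miR-199a-3p, the arms of one hairpin, by -0.10 and 0.19. miR-199a-5p rested on CHO-fed animal 4_8, at 9.999 against 9.08 and 9.33 in the other CHO-fed animals and 9.33 to 9.40 in EtOH-fed animals, and was 0.16 without it. The summed level was 13675 to 21613 CPM in CHO-fed and 12836 to 15052 CPM in EtOH-fed animals.

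The other cell lists varied in both directions. Endothelial miR-126 was at 14.64, 14.89, and 14.92 in CHO-fed and 15.17, 14.94, and 15.09 in EtOH-fed animals, without overlap, and differed by 0.25 (SE 0.29). It was related to depth, at 2.30 per 10-fold, and the difference was 0.105 once log10 total count entered the fit. Of 4 leukocyte miRNAs, miR-342-3p differed by -0.35, miR-150 by -0.26, and miR-142-3p and miR-223 by 0.04 each, and none had an unadjusted p under 0.05. Summed, they were at 3204 to 3967 CPM in CHO-fed and 3131 to 3411 CPM in EtOH-fed animals. For bile duct epithelium, miR-429 is given above and miR-200b differed by -0.01. Muscle miR-206 and miR-1 differed by -0.32 and 0.06.

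**Figure D3:**
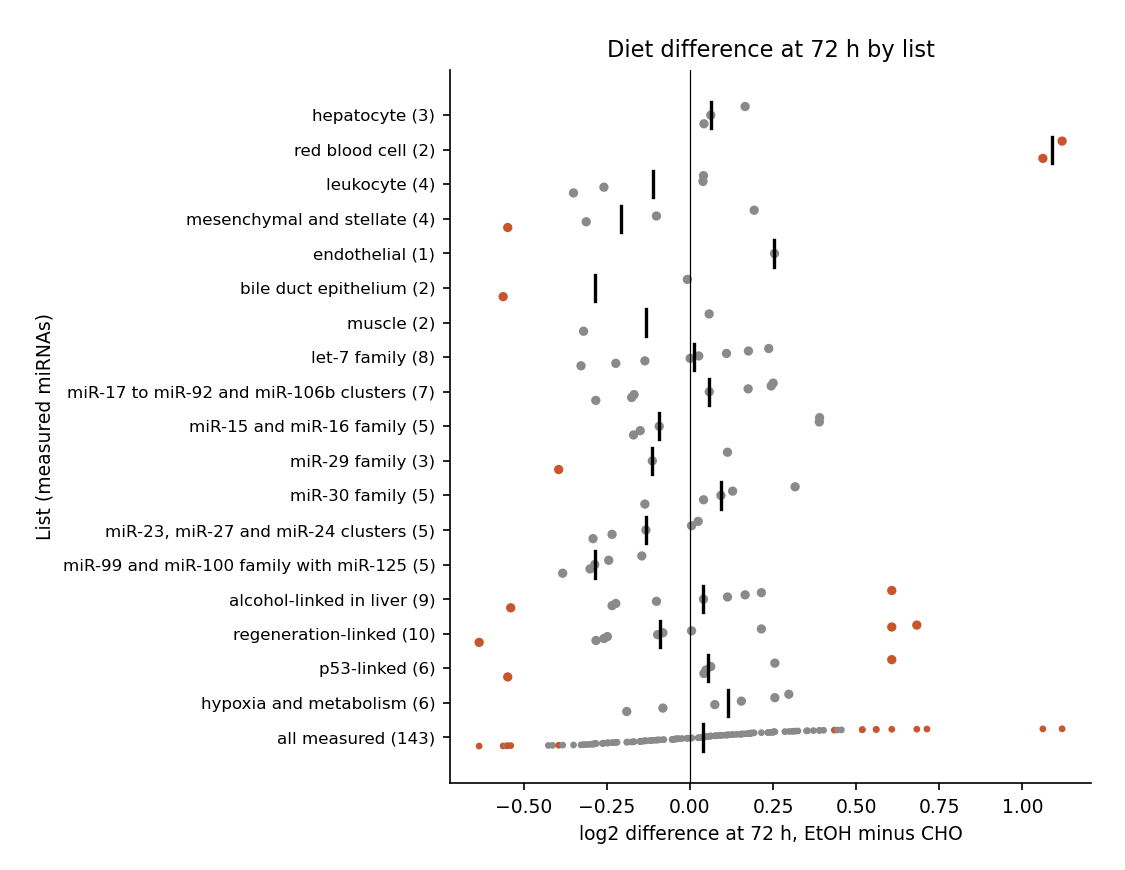
The log2 difference EtOH minus CHO at 72 h (x axis) of each measured miRNA of a list (y axis, number measured in brackets), with the list's median as a black bar and, in orange, miRNAs with an unadjusted p under 0.05. The red blood cell list lies at 1.06 and 1.12, the miR-99 and miR-100 family with miR-125 lies below 0 throughout, and most other lists spread on both sides of 0.

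By family, miR-99a, miR-99b, miR-100, miR-125a-5p, and miR-125b-5p, which share clusters with let-7 genes, were all lower, against 65 of all 143. They ran from -0.38 to -0.14, with a median of -0.29 and none at an unadjusted p under 0.05. Members of a cluster are not independent. In each of them the animals of the 2 diets overlapped. The 8 let-7 family members, which limit proliferation, had a median of 0.01 and ran from -0.33 in let-7c to 0.24 in let-7d. let-7a was at 13.58, 13.31, and 13.65 in CHO-fed and 13.51, 13.66, and 13.44 in EtOH-fed animals. The miR-15 and miR-16 family, brakes on the cell cycle, split into miR-15b and miR-16 at 0.39 each and miR-195, miR-322, and miR-497 at -0.17, -0.15, and -0.09, although all 5 share a seed.

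The proliferation-linked clusters of miR-17 to miR-92 and of miR-106b had a median of 0.06 over 7 measured, from -0.28 in miR-19a to 0.25 in miR-25. The miR-30 family had a median of 0.09 over 5, and the clusters of miR-23, miR-27, and miR-24 -0.13 over 5, with miR-23a at -0.29 and no overlap between diets. None of their members had an unadjusted p under 0.05.

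In the lists linked to alcohol, regeneration, and p53, 2 of 9, 3 of 10, and 2 of 6 members had an unadjusted p under 0.05, against 9.79% of all 143. These lists share members, miR-34a being in each, and nothing particular to them is read from these counts. miRNAs linked to alcohol in liver, 9 measured of 13 listed, had a median of 0.04, with miR-34a above and miR-181a below at an unadjusted p under 0.05. miR-21, which the study inhibits in other animals, was at 15.11, 15.22, and 15.39 in CHO-fed and 15.66, 15.16, and 15.55 in EtOH-fed animals, which overlap, and differed by 0.22 (SE 0.29, limma adjusted p 0.824). It was related to depth, at 2.25 per 10-fold, and the difference was 0.07 once log10 total count entered the fit, 0.11 without EtOH-fed animal 4_10, and 0.36 without EtOH-fed animal 4_11. The 10 regeneration-linked miRNAs had a median of -0.09, with miR-34a and miR-203 higher, miR-26a lower, and miR-22 at -0.10 (SE 0.17). Of 6 p53-linked miRNAs, miR-34a was higher and miR-145 lower, and miR-107, miR-192, miR-194, and miR-34c lay between 0.04 and 0.26. The 6 of hypoxia and metabolism had a median of 0.11 and none at an unadjusted p under 0.05.

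Of lists the study used, 14 of 16 miRNAs higher in activated stellate cells were measured, with a median of -0.12, 5 higher and 9 lower, and miR-145 and miR-152 at an unadjusted p under 0.05. Of those lower in activated stellate cells, 21 of 23 were measured, with a median of 0.04, 11 higher and 10 lower, and 3 at an unadjusted p under 0.05, namely miR-26a, miR-181a, and miR-29a. These 2 of 14 and 3 of 21 stand against 9.79% of all 143. Sinusoidal endothelial miRNAs had a median of -0.10 over 25 and Kupffer cell miRNAs after hepatectomy 0.11 over 5. The lists overlap, as miR-145 and miR-181a stand in several.

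Of the other miRNAs that the study or earlier work on these data named, miR-340-5p had the largest difference at 72 h. It was at 8.59, 8.72, and 8.58 in CHO-fed and 9.22, 8.99, and 9.36 in EtOH-fed animals, without overlap, and differed by 0.56 (SE 0.31, limma adjusted p 0.640). miR-146a, which limits inflammatory signalling, was at 11.37, 11.71, and 11.46 in CHO-fed and 11.26, 11.33, and 11.38 in EtOH-fed animals and differed by -0.19 (SE 0.19), or by -0.09 without CHO-fed animal 4_8, the highest. miR-1224 differed by 0.13 (SE 0.18) and miR-674-3p by 0.03 (SE 0.20). Their animals overlapped between diets.

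The 14 miRNAs were then looked up in the 18 untreated animals of 0, 6, and 24 h, whose levels do not enter the differences at 72 h, although they share in the estimate of spread behind the SE and p by which the 14 were taken. For the mean diet difference over these times, limma called 8 of 143 (5.59%) and 42 had an unadjusted p under 0.05 (29.4%). Of the 14, 0 were called there and 5 had an unadjusted p under 0.05, namely miR-451, miR-26a, miR-181a, miR-429, and miR-152. For 11 of the 14 the sign was the same as at 72 h, against 101 of all 143 (70.6%). Over all 143 miRNAs, Pearson's r between the difference at 72 h and the mean of the other times was 0.39, and by time 0.42 at 0 h, 0.10 at 6 h, and 0.40 at 24 h. These are descriptions across miRNAs measured in one library per animal, and miRNAs are not independent replicates.

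Sizes at the other times varied among the 14. miR-181a had -0.37 (SE 0.12, limma adjusted p 0.0503) and miR-152 0.49 (SE 0.16, limma adjusted p 0.0503), close to their sizes at 72 h. miR-26a had -0.27 (SE 0.12), under its -0.63 at 72 h, and miR-429 -0.35 (SE 0.14). miR-29a, miR-203, miR-872, miR-145, and miR-3545-3p had between -0.09 and 0.05, while miR-34a had 0.12 (SE 0.13), miR-130a 0.13 (SE 0.14), and miR-409-3p 0.19 (SE 0.11).

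The red blood cell miRNAs had differences of opposite sign at different times. miR-451 differed by 0.24 at 0 h, -0.45 at 6 h, and 1.31 at 24 h (SE 0.30 each), with 1.06 at 72 h, and only the value at 24 h was called by limma (adjusted p 0.0188). At 0 h it spanned 9.39 to 9.60 in CHO-fed and 9.36 to 10.21 in EtOH-fed animals, above every 72 h value of the same diet. miR-144 differed by 0.51, -0.62, and 1.18 at 0, 6, and 24 h (SE 0.38 each). Against 6 h, which lies in the same numbered set as 72 h, limma called 0 of 143 miRNAs for a different diet effect. Without EtOH-fed animal 4_10 it called 2, miR-451 and miR-144 (1.91 and 2.21, adjusted p 0.00897 and 0.0166). That animal was the lowest EtOH-fed animal of 72 h in both, so the increase was fixed by leaving it out.

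**Figure D4:**
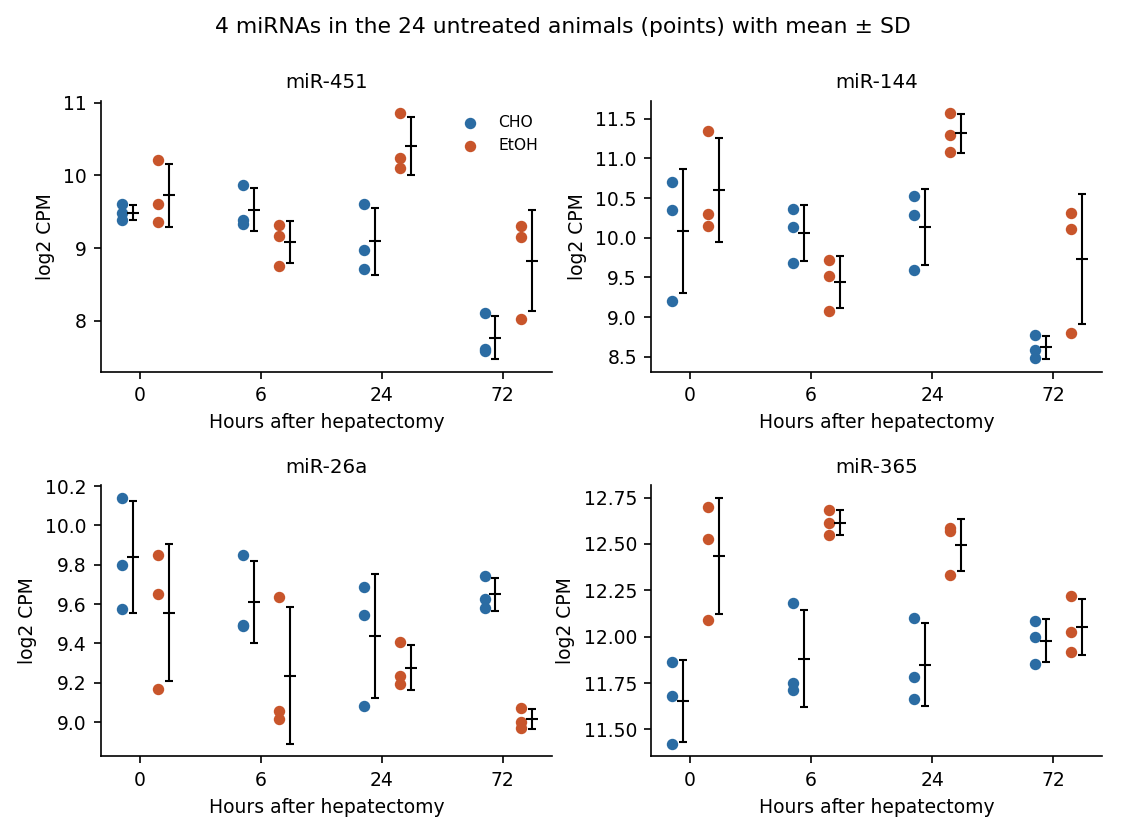
The log2 CPM (y axis) of miR-451, miR-144, miR-26a, and miR-365 in the 3 CHO-fed (blue) and 3 EtOH-fed (orange) untreated animals at 0, 6, 24, and 72 h after hepatectomy (x axis), with the mean ± SD beside each group. In miR-451 and miR-144 the EtOH mean lies below the CHO mean at 6 h, where the animals overlap in miR-144, and above it at 24 h. In miR-26a the diets are apart at 72 h. In miR-365 they are apart at 0, 6, and 24 h and overlap at 72 h.

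The 8 miRNAs called over 0, 6, and 24 h were looked up at 72 h in turn. They were miR-103, miR-455, miR-210, miR-151, miR-148b-3p, miR-582, miR-30a, and miR-365. All 8 had the same sign at 72 h and a smaller size, 0 had an unadjusted p under 0.05, and in all 8 the animals overlapped. They were chosen for their size at the other times, so a smaller size elsewhere is no finding by itself. Of the 8, miR-455 had only 24 to 46 counts per animal at 72 h, near the lowest count of any miRNA. miR-582 was also low there, at 6.93 to 7.71 log2 CPM in CHO-fed and 6.88 to 7.52 in EtOH-fed animals. Whether low counts limit these 2 differences at 72 h was not tested. With the set as a replicate block 23 were called over 0, 6, and 24 h.

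miR-365, known from brown fat, differed by 0.72 over 0, 6, and 24 h (SE 0.11, limma adjusted p 8.14e-05), with 0.78, 0.73, and 0.65 at the separate times. At each of these all EtOH-fed animals lay above all CHO-fed animals, at 24 h from 12.33 to 12.58 against 11.66 to 12.10. At 72 h the CHO-fed animals had 11.85 to 12.08 and the EtOH-fed animals 12.03, 12.22, and 11.92, so that they overlapped, and the diets differed by 0.07 (SE 0.18). The change in the diet effect was -0.65 (SE 0.21, unadjusted limma p 0.00537, adjusted p 0.384).

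miR-103, which dampens insulin signalling, differed by 0.58 at the other times (SE 0.10) and by 0.30 at 72 h (SE 0.17), from 8.69, 9.11, and 8.94 in CHO-fed to 9.28, 9.11, and 9.24 in EtOH-fed animals. The lowest EtOH-fed animal lay just below the highest CHO-fed animal. miR-107, which shares its seed, differed by 0.26 at 72 h (SE 0.18). miR-210, induced by low oxygen, differed by 0.58 at the other times and 0.15 at 72 h (SE 0.20), and miR-455 by -0.74 and -0.19 (SE 0.22).

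**Figure D5:**
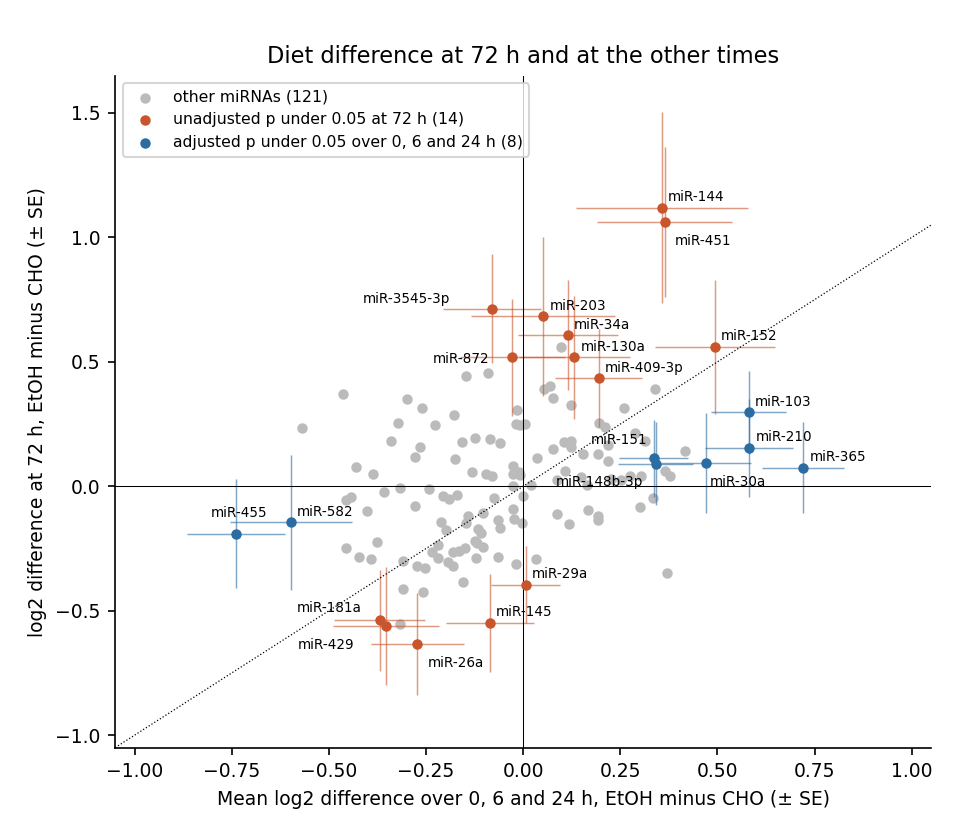
The log2 difference EtOH minus CHO at 72 h (y axis) against the mean difference over 0, 6, and 24 h (x axis) for 143 miRNAs, with SE bars for the coloured ones and a dotted line of equality. Orange marks the 14 miRNAs with an unadjusted p under 0.05 at 72 h and blue the 8 called over the other times. The blue points lie nearer to 0 on the y axis than on the x axis, and miR-144 and miR-451 stand highest at 72 h.

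Whether the diet effect at 72 h differed from the mean of the other times was tested for each miRNA. limma called 0 of 143, with a smallest adjusted p of 0.384, and 11 had an unadjusted p under 0.05 (7.69%). Besides miR-365, these were miR-3545-3p, miR-29a, miR-340-3p, miR-342-3p, miR-196b, miR-350, miR-181c, miR-374, miR-455, and miR-3561-3p. In 9 of these 11 the sign at 72 h was the opposite. Among them miR-342-3p, a leukocyte miRNA, differed by 0.37 at the other times and -0.35 at 72 h. miR-181c, related to depth as given above, differed by -0.46 at the other times and 0.37 at 72 h. For 72 h the sets differ from those of 0 and 24 h, so a time effect on the diet difference and a set effect on it cannot be told apart there.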

How the data were processed

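Rat liver RNA was counted with NanoString nCounter probes. The authors scaled the counts by TMM, applied voom, and deposited log2 CPM of 143 miRNAs, 48 animals. Recovered counts were within 0.001 of whole numbers. The deposited values were fitted with limma 3.58.1 (lmFit, eBayes) in R 4.3.3, one mean for each of 8 untreated groups (24 animals), without a filter. Benjamini-Hochberg adjustment ran over all 143 miRNAs, with calls under 0.05. The fit was tested on simulated data. The 72 h comparison, its miRNA lists and the named miRNAs (unadjusted p under 0.05, the 8 largest differences, list members, and miRNAs named by the study or earlier) were chosen with earlier results of these data known. The exact permutation test ran over 20 assignments of 6 animals. Sequences came from RefSeq GRCr8, 35 by exact name and 62 through the arm assigned to an older name.

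At 0 and 24 h each set holds a single untreated animal of each diet, so animals can be matched across diets by set there only. Deviations of same-set animals from their group means correlated by 0.52, 0.79, and 0.65 at 0 h, and by 0.26, 0.24, and -0.27 at 24 h. The 0 h animals of set 2 had the smallest totals of their groups, 58168 in CHO-fed and 92245 in EtOH-fed. Whether sets pair animals, or share depth or a batch, was not tested. The labels do not say what a set is, and the filter that left 143 miRNAs is not given in the sources used here. Animals are the replicates.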

Additional observations from a re-analysis of the deposited data

How the results depend on the processing

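At 72 h, 0 miRNAs were called under RLE size factors, scaling to the 100 highest miRNAs or to totals without miR-122, a filter of 50 counts in 3 animals (126 miRNAs), voom weights, 6 or 12 or 48 animals, the set as a replicate block, total count as a covariate, and robust eBayes. Leaving out 1 of the 6 animals gave 0 to 2 called miRNAs, 2 without EtOH-fed animal 4_10, and 6 to 14 with an unadjusted p under 0.05 (6 without CHO-fed animal 4_8 or EtOH-fed animal 4_10, 8 without EtOH-fed animal 4_11). The difference of the diet effect between 72 h and 6 h gave 0 to 2 likewise. No paired analysis was possible at 72 h, where set 4 holds all animals of both diets and so singles out no partner. The replicate block changed no call at 72 h. Over 0, 6, and 24 h the 8 calls became 23 with the replicate block and 19 with all 48 animals, and ran from 5 to 22 over single omissions. Calls numbered 5 without CHO-fed 1_1 or 2_7, 13 without CHO-fed 1_7, 14 without EtOH-fed 4_5, 15 without CHO-fed 2_1, 16 without EtOH-fed 4_6, 19 without EtOH-fed 2_4, 22 without CHO-fed 3_1 or 4_3, and 16 without both 0 h animals of set 2, an alternative chosen after seeing the data.

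The median difference over all miRNAs was 0.03, 0.01, and -0.01 under the 3 other scalings in the order given. None of the 14 leading miRNAs changed sign. miR-365 was -0.00691 without EtOH-fed 4_11 and ran up to 0.143 over single omissions, miR-199a-5p ran from -0.294 to 0.164 (without CHO-fed 4_8), let-7a from -0.074 (without CHO-fed 4_8) to 0.0938, and miR-674-3p from -0.0455 (without EtOH-fed 4_10) to 0.176, so these changed sign. let-7a was also -0.00104 with the 100 highest miRNAs and -0.0168 with totals without miR-122, where miR-674-3p was -0.0135. Other named values moved by over 1.5 times without changing sign, over all alternatives, in miR-122 (0.0895 to 0.28), miR-22 (-0.21 to -0.016), miR-103 (0.184 to 0.397), miR-455 (-0.359 to -0.0672), and miR-1224 (0.0713 to 0.232). The cause was not tested.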
